A study of Homo sapiens with 6 samples.

Results

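Interferon-stimulated genes were examined in HCCLM3 cells, an established, highly metastatic line of human hepatocellular carcinoma. The set holds 34 genes of the 58302 listed, taken by gene symbol from the deposited tables, and every symbol was found. It was chosen with earlier results of these data known, and OASL and ISG15 were named in that choice for moving against the IFIT genes and IFI6. The p-values of those genes are therefore no independent evidence of their directions. Total RNA was sequenced from 3 libraries of cells transfected with a Control antisense oligonucleotide (ASO) and 3 transfected with a SCARNA13 ASO. ASOs are synthetic oligonucleotides that base-pair with a target RNA so that it is degraded or blocked, and SCARNA13 is a small Cajal body-specific RNA. The study asked which genes lie downstream of it. Both groups are the same line with the same kind of transfection, and no untransfected cells or interferon-treated cells were compared. The labels give no ASO sequence, dose or time and name no separate cultures, so the spread behind each p-value is that between libraries and may be technical.

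Interferons are secreted proteins, and cells release those of type I when they sense foreign nucleic acid. Type I interferons bind the IFNAR1 and IFNAR2 receptor and activate the kinases JAK1 and TYK2, and a complex that holds STAT2 and IRF9 then binds the interferon-stimulated response element (ISRE) in promoters. Interferon gamma acts mainly through another element, the gamma-activated site. The induced proteins sense RNA, degrade it, block its translation, modify proteins with ISG15 or hold viruses at membranes, and many are made at a basal level without added interferon.

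The members' promoters were searched for both elements in the 250 bases before each RefSeq start (GRCh38.p14), on both strands, and 28 of the 34 members matched the promoter table by symbol or alias. The ISRE was searched as GAAA, any 2 bases and GAAA, and it was present in 18 of the 28 (64.3%), against 1014 of 27305 genes (3.71%). The gamma-activated site was searched as TTC, any 3 bases and GAA. It was present in 9 of the 28 (32.1%), against 8.09% of all genes. A match is a description of the letters and not a measured binding site. OASL, IFIT2, OAS2, IRF7, USP18 and IFITM2 were not in the table. The upstream stretches below, each 80 bases long and starting 160 bases before the RefSeq start, are shown for a member that fell (ISG15), for IFIT1 and IFI6, named in the choice of the set, and for a member that rose (IFI35). Capitals mark ISRE matches, written 5′ to 3′ on the gene's strand. ISG15 lies at chr1:1013337-1013416 (plus strand), IFIT1 at chr10:89392463-89392542 (plus), IFI6 at chr1:27672273-27672352 (minus) and IFI35 at chr17:43006624-43006703 (plus).
ISG15: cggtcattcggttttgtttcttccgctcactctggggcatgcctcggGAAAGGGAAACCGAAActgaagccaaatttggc
IFIT1: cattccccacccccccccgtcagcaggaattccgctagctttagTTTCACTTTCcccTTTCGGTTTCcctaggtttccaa
IFI6: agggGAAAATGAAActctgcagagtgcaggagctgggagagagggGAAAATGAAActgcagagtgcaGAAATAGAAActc
IFI35: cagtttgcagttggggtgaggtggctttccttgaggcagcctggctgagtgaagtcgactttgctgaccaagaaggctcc
ISG15 has 2 matches that share their central GAAA, IFIT1 has 2 on the opposite strand, and IFI6 has 3. IFI35 has no ISRE match in its 250 bases and has a gamma-activated site match that starts 22 bases before its start.

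The libraries held 20457474 to 25173559 reads assigned to genes. Both replicate 3 libraries stood apart. Pairs of libraries with 1 of them correlated at 0.900 to 0.939 over genes, and the other pairs at 0.980 to 0.994. The shift followed GC content: the tenth of genes highest in GC lay 1.05 (Control ASO 3) and 0.76 (SCARNA13 ASO 3) above the mean over libraries on the log2 scale, and -0.39 to -0.50 from it in the other libraries. SCARNA13 itself had 6, 5 and 2 reads in the controls and 2, 3 and 2 with its ASO, a ratio of 0.530 after scaling to depth with an exact 95% interval of 0.179 to 1.43, so its lowering was not detectable at this depth. SNHG10, whose span on the same strand holds SCARNA13, stood at 4.43, 4.50 and 6.36 FPKM against 3.05, 3.55 and 4.40. Its groups did not overlap, and 4.44% of all genes averaging at least 1 FPKM were likewise lower without overlap. The limma adjusted p of SNHG10 was 1.00 without block and 0.0525 with block and GC correction (-0.40 ± 0.08). The labels call the line HCC cells, and of the 8 hepatocyte markers ALB and APOB were at 0 in every library and 7 averaged under 1 FPKM (fragments per kilobase of gene, scaled to library size). Epithelial KRT18 averaged 1404 FPKM and CDH1 was at 0. Of the 6 lymphoid and dendritic markers, CD3E and CLEC4C were among those at 0, and the list summed to 0 to 0.0803 FPKM in the controls and 0 to 0.0498 with the SCARNA13 ASO. Of the 6 macrophage markers LYZ and CD163 were at 0, and the sum was 2.89 to 6.86 in the controls and 2.26 to 3.41 with the SCARNA13 ASO, mostly CD14. The endothelial sum was 0.0554 to 0.106 and 0.0433 to 0.0703 with KDR at 0, and the fibroblast sum was 5.55 to 9.76 and 5.30 to 7.72, mostly ACTA2.

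Of the 34 members, 21 averaged at least 1 FPKM over the 6 libraries and were tested, 9 averaged 0.1 to 1 FPKM and 4 averaged under 0.1. Fold changes are on the log2(FPKM + 0.5) scale, SCARNA13 ASO over Control ASO, which understates the change of low genes. The test with group as its only term was limma-trend, and it called 0 of the 21 members and 0% of the 10120 genes tested at a Benjamini-Hochberg adjusted p under 0.05. At an unadjusted p under 0.05 it gave 1 member, OASL, and 173 genes in all. A second fit removed each library's trend on GC content and kept the replicate number as a block, so that libraries of the same number were compared. It called 3 of 21 members: OASL and ISG15 fell and IFI35 rose. Over all genes it called 3.06% as higher and 2.15% as lower, against 4.76% and 9.52% of the tested members, which is 1 and 2 genes. The 2 lower genes were named in the choice of the set for their direction. The member shares and counts given here are therefore no evidence of a difference from all genes. "Fell" and "rose" refer below to that fit, and the fit without block called none of these changes (adjusted p of 1.00 for every member). The 21 tested members had a median log2 fold change of 0.11 in each fit, beside -0.02 (group only) and 0.00 (block with GC correction) over all tested genes. On FPKM, 7 members were higher in all 3 same-numbered pairs and 7 were lower in all 3, beside 23.9% and 29.6% of all tested genes. The groups did not overlap for 2 members that were higher (TRIM25, STAT2) and 1 that was lower (OASL), beside 4% and 4.44% of all tested genes. In the fit with block and GC correction, 14 of the tested members had a positive estimate and 7 a negative one.

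**Figure D1:**
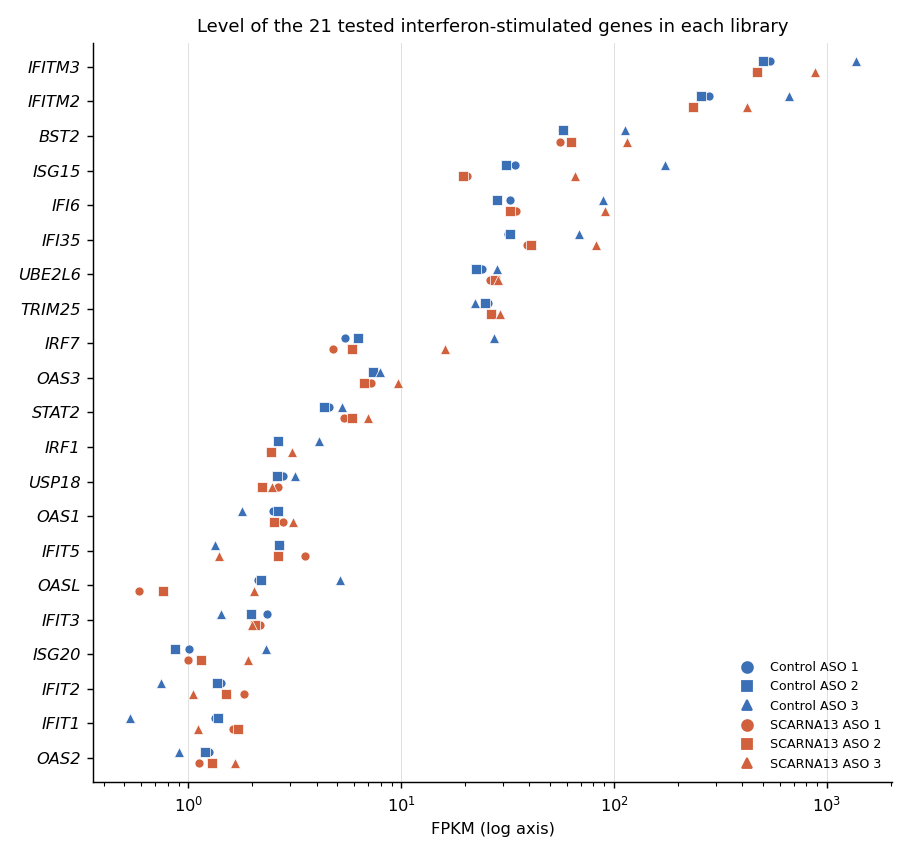
FPKM (log axis) of the 21 tested members in each of the 6 libraries, 1 row per gene, by group and replicate. The members span from about 1 FPKM (OAS2, IFIT1) to IFITM3 at 464 to 1371 FPKM, and the replicate 3 libraries lie to the right of the others for most members.

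OASL encodes a member of the oligoadenylate synthetase family without synthetase activity, whose ubiquitin-like domains enhance signalling by the RNA sensor RIG-I. It lies on chromosome 12 (GRCh38 positions 121019111 to 121039242, minus strand) and shares no exonic base with another gene. The controls had 2.11, 2.19 and 5.17 FPKM and the SCARNA13 ASO libraries 0.586, 0.758 and 2.03, which rest on 226, 205 and 238 reads against 56, 76 and 111. The highest SCARNA13 ASO library lay below the lowest control, although replicate 3 was high in both groups. Means were 3.16 ± 1.74 (SD, n = 3) and 1.12 ± 0.788, and p was 0.1 in an exact permutation test (two-sided), the smallest that 3 against 3 allows. Within pairs the ratios were 0.28, 0.35 and 0.39. The log2 fold change was -1.18 ± 0.45 (SE; limma adjusted p = 1.00) without block and -1.14 ± 0.09 (adjusted p = 0.0284) with block and GC correction, where OASL fell by 54.8%. The block without GC correction gave a limma adjusted p of 0.0506.

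The 3 catalytic members of the family, OAS1, OAS2 and OAS3, make the oligoadenylates that activate RNase L, and they did not pass in either fit. OAS1 stood at 2.51, 2.63 and 1.78 FPKM in the controls and 2.78, 2.53 and 3.11 with the SCARNA13 ASO, a log2 fold change of 0.26 ± 0.14 (block with GC correction; limma adjusted p = 0.280). OAS2 gave 0.20 ± 0.16 and OAS3, the most abundant of the family at 7.71 FPKM on average, 0.08 ± 0.11. For OAS1 and OAS2 the highest of the 6 values was in SCARNA13 ASO 3, while replicates 1 and 2 overlapped between the groups. OAS3 stood at 7.38, 7.39 and 7.97 in the controls and 7.19, 6.68 and 9.66 with the SCARNA13 ASO. It was lower in pairs 1 and 2 and higher in pair 3, and without replicate 3 its estimate in the fit with block and GC correction was -0.07.

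ISG15 encodes a ubiquitin-like protein that is attached to other proteins and is also secreted. It lies on chromosome 1 (1001138 to 1014541, plus strand), and 36 of its 941 exonic bases overlap a clone-named gene on the other strand. It stood at 34.3, 31.1 and 174 FPKM in the controls and 20.4, 19.5 and 65.7 with the SCARNA13 ASO. The groups overlapped, since both replicate 3 libraries were above all others, but every SCARNA13 ASO library was below the control of its number, at ratios of 0.60, 0.63 and 0.38. Summed reads were 3908 and 2010, a depth-scaled ratio of 0.507 (exact 95% interval 0.480 to 0.535, counting error only). ISG15 means were 79.8 ± 81.6 FPKM (SD, n = 3) and 35.2 ± 26.4 (exact permutation p = 0.5). The log2 fold change was -0.93 ± 0.81 without block (limma adjusted p = 1.00) and -0.85 ± 0.10 with block and GC correction (adjusted p = 0.0365), where ISG15 fell by 44.6%. Without the Control ASO replicate 3 library the estimate without block was -0.13, and without SCARNA13 ASO replicate 3 it was -1.49.

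Of the other members of the ubiquitin-like modifier system, UBE2L6, USP18 and TRIM25 were tested and did not pass in either fit, and HERC6 was too low to be tested. UBE2L6, which carries ISG15 to its targets, stood at 24.0, 22.4 and 28.2 FPKM in the controls and 26.2, 27.5 and 28.6 with the SCARNA13 ASO, with a log2 fold change of 0.21 ± 0.05 (block with GC correction; limma adjusted p = 0.0779). USP18, the protease that removes ISG15 and that also restrains the type I receptor, stood at 2.80, 2.61 and 3.16 against 2.65, 2.21 and 2.48, with -0.16 ± 0.08 (adjusted p = 0.260). TRIM25, a ubiquitin ligase that acts on RIG-I, stood at 25.5, 24.8 and 22.3 against 26.6, 26.3 and 29.04. Every SCARNA13 ASO library was above every control for TRIM25, at 0.20 ± 0.08 (adjusted p = 0.166). In GENCODE 29, 836 of the 9501 exonic bases of TRIM25 are shared with 4 other genes. UBE2L6 and TRIM25 were higher and USP18 lower in all 3 pairs, which 23.9% and 29.6% of all tested genes also were.

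**Figure D2:**
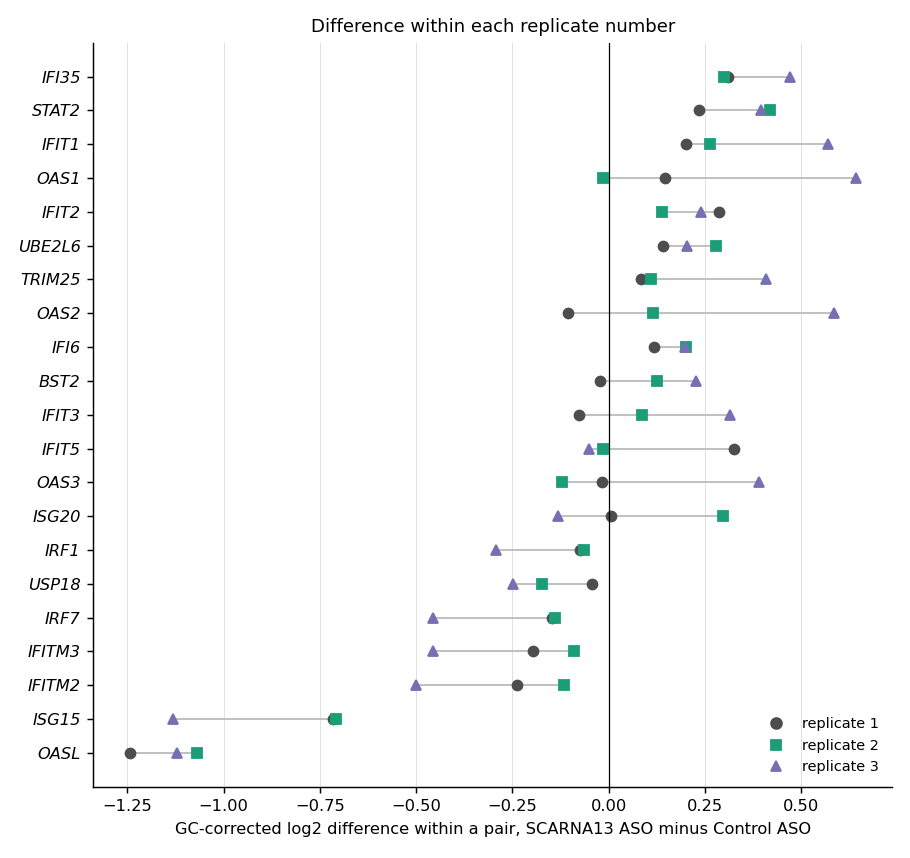
GC-corrected log2 difference of SCARNA13 ASO from Control ASO within each replicate number for the tested members, 1 point per pair. All 3 points of OASL and ISG15 lie below 0 and all 3 of IFI35 above it, while the points of IFIT3, IFIT5 and OAS3 fall on both sides of 0.

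IFI35, an interferon-induced leucine zipper protein that binds the related protein NMI, was the member that rose. It lies on chromosome 17 (43006725 to 43014456, plus strand). The controls had 31.7, 32.5 and 68.3 FPKM and the SCARNA13 ASO libraries 39.0, 40.8 and 82.2, so the groups overlapped through replicate 3 and each pair gave a ratio of 1.20 to 1.25. Means were 44.2 ± 20.9 (SD, n = 3) and 54.0 ± 24.4. The log2 fold change was 0.29 ± 0.45 without block (limma adjusted p = 1.00) and 0.36 ± 0.06 with block and GC correction (adjusted p = 0.0429). The latter is a 1.28-fold rise on the corrected scale, above each measured pair ratio. The GC correction moved the log2 difference of pair 3 from 0.27 to 0.47. Leaving out the SCARNA13 ASO replicate 3 library from the fit without block turned the estimate to -0.05.

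The 3 calls rest on all pairs or on pairs 1 and 2. How replicates 1 and 2 pair was taken from the titles, since crossed libraries of these numbers correlated about as well. A swapped pairing was not fitted. Without replicate 3, the fit with block and GC correction gave limma adjusted p of 0.0303 for OASL (-1.16), 0.0213 for ISG15 (-0.71) and 0.0329 for IFI35 (0.30). Without replicate 1 or without replicate 2 it called none of the members, and 14 and 0 genes in all, against 763 without replicate 3. With no filter on low values, a setting chosen after seeing the data, the same fit called 0 of 28641 genes by limma, with 3651 at an unadjusted p under 0.05.

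IFIT1 binds viral RNA that lacks the cap methylation of host messages and blocks its translation. The 4 IFIT genes of the set lie close together on chromosome 10. None passed in either fit. IFIT1 stood at 1.34, 1.38 and 0.530 FPKM in the controls and 1.61, 1.70 and 1.12 with the SCARNA13 ASO, so each SCARNA13 ASO library exceeded the control of its number, by ratios of 1.20, 1.24 and 2.10. Its log2 fold change was 0.36 ± 0.30 without block and 0.34 ± 0.12 with block and GC correction (limma adjusted p = 0.126). Without the Control ASO replicate 3 library the estimate without block was 0.0766. IFIT2 stood at 1.42, 1.36 and 0.745 against 1.83, 1.51 and 1.05, with 0.22 ± 0.10 (adjusted p = 0.190). For IFIT1 and IFIT2 the control of replicate 3 was the lowest library. IFIT2 shares 421 of its 4101 exonic bases with 2 other genes. IFIT3 stood at 2.34, 1.98 and 1.42 FPKM against 2.18, 2.06 and 2.00, and IFIT5 at 2.69, 2.68 and 1.33 against 3.52, 2.63 and 1.39. On FPKM those 2 genes were each higher in 2 of 3 pairs, and after GC correction IFIT5 was higher in pair 1 only. Their log2 fold changes were 0.11 ± 0.11 and 0.09 ± 0.11 (block with GC correction), and that of IFIT5 was -0.03 without replicate 1. The 4 IFIT estimates were thus positive, from 0.09 to 0.34, and smaller in size than those of OASL and ISG15. A difference between these genes and OASL or ISG15 was not tested.

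**Figure D3:**
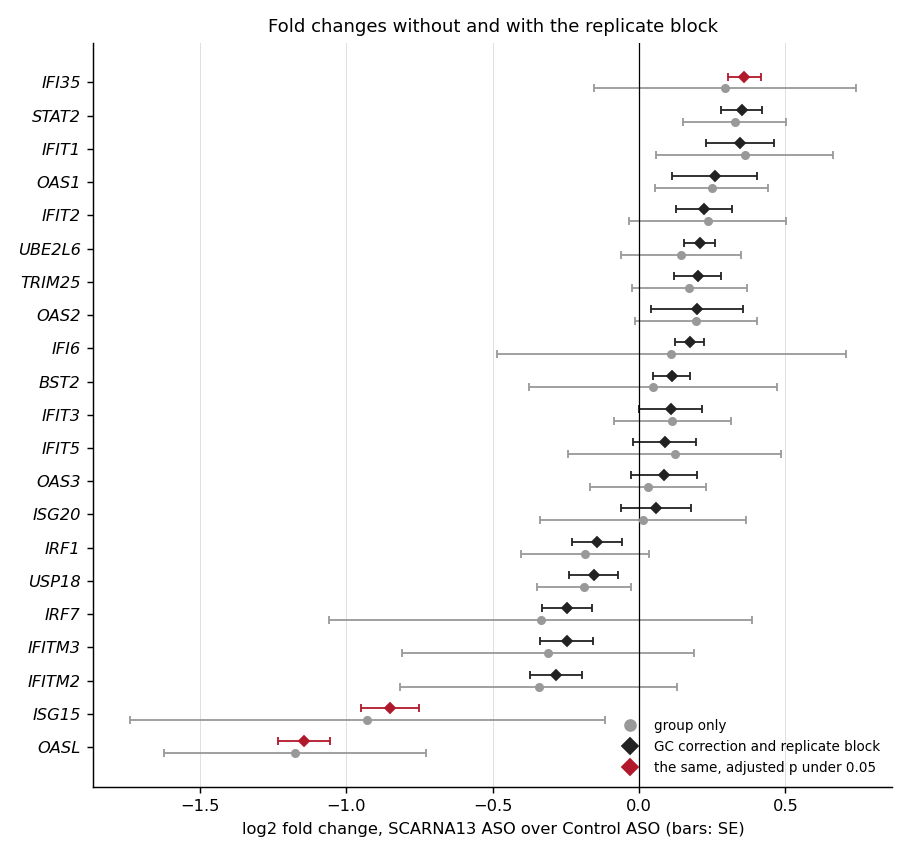
Log2 fold changes, SCARNA13 ASO over Control ASO, of the 21 tested members without block and with replicate block and GC correction; bars are standard errors. The estimates of OASL (-1.18 and -1.14) and ISG15 (-0.93 and -0.85) lie farthest from 0, and the bars are shorter with the block.

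The membrane and restriction effectors held the most abundant members, and none of them passed. IFI6, a small membrane protein that limits cell death and flavivirus replication, lies on chromosome 1 (27666061 to 27672218, minus strand). It stood at 32.4, 28.2 and 88.4 FPKM in the controls and 34.8, 32.5 and 90.3 with the SCARNA13 ASO. Its ratios within pairs were 1.07, 1.15 and 1.02, and its log2 fold change was 0.11 ± 0.60 without block and 0.17 ± 0.05 with block and GC correction (limma adjusted p = 0.0916). IFITM3, which blocks virus fusion in endosomes, stood at 538, 499 and 1371 FPKM against 464, 471 and 881. IFITM2 stood at 280, 257 and 665 against 235, 236 and 423. Both were lower in all 3 pairs, as were 29.6% of all tested genes, with -0.25 ± 0.09 (adjusted p = 0.140) and -0.28 ± 0.09 (adjusted p = 0.107). The IFITM genes are close paralogs, and IFITM2 also shares 351 exonic bases with IFITM1, so their reads could be split by the authors' counting and their separate values are uncertain. IFITM3 shares 287 of its 1348 exonic bases with a gene on the other strand. BST2 (tetherin), which holds budding virions at the cell surface, stood at 56.9, 57.3 and 112 against 55.4, 63.1 and 116, with 0.11 ± 0.06. ISG20, an exonuclease that degrades viral RNA, averaged 1.37 FPKM with 0.06 ± 0.12. Within this role IFITM2 and IFITM3 had negative estimates and IFI6, BST2 and ISG20 positive ones.

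STAT2, the subunit of the ISRE-binding complex with the transactivation domain, came nearest to the threshold without passing it. It stood at 4.57, 4.35 and 5.26 FPKM in the controls and 5.38, 5.86 and 7.0 with the SCARNA13 ASO, and the groups did not overlap (4.73 ± 0.476 and 6.08 ± 0.833, SD, n = 3; exact permutation p = 0.1). The log2 fold change was 0.33 ± 0.18 without block and 0.35 ± 0.07 with block and GC correction (limma adjusted p = 0.0569). IRF7, the factor that amplifies type I interferon transcription, stood at 5.45, 6.24 and 27.4 FPKM against 4.79, 5.86 and 16.1, with -0.25 ± 0.08 (adjusted p = 0.128). IRF1, an early factor downstream of interferon gamma, stood at 2.62, 2.63 and 4.11 against 2.42, 2.44 and 3.07, with -0.14 ± 0.09 (adjusted p = 0.306). Both IRF genes were lower in all 3 pairs and STAT2 was higher in all 3, beside 29.6% and 23.9% of all tested genes. IRF1 shares 1716 exonic bases with C5orf56 on the other strand.

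The shift of replicate 3 ran through the members as well. Of the 15 tested members whose longest transcript exceeds 50% GC, 14 were higher in the replicate 3 libraries than in the others, by a median of 0.96 on the log2 scale. Of the 6 members at or under 50%, 1 was higher, and the median was -0.40. ISG15 (63.4% GC) was shifted by 2.04 and IRF7 (66.8%) by 1.82, while IFIT5 (37.4%) was shifted by -0.85. The IFIT genes were low and ISG15 high in replicate 3 of both groups. The part of GC content in the differences between the groups that remain in the second fit was not tested.

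**Figure D4:**
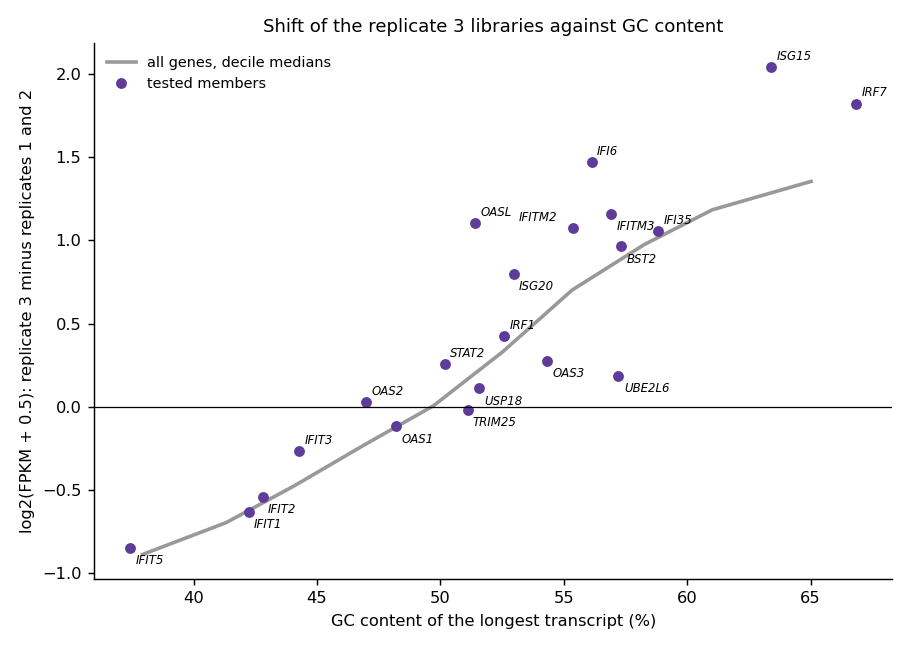
Difference of the replicate 3 libraries from replicates 1 and 2, in log2(FPKM + 0.5), against the GC content of the longest transcript (%) of each tested member (points), with the medians of all genes by GC decile as a line. Members above 50% GC lie mostly above 0, ISG15 highest at 2.04, and the IFIT genes lie below 0.

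The 13 members not tested averaged under 1 FPKM and were left out by the filter on low values. With no such filter, limma called 0 of the 34 members with group as the only term. It also called 0 with block and GC correction, a setting chosen after seeing the data. IFIH1, which encodes the RNA sensor MDA5, stood at 0.457, 0.456 and 0.219 FPKM in the controls and 0.716, 0.651 and 0.327 with the SCARNA13 ASO, on 131 and 195 reads in all. Its depth-scaled read ratio was 1.47 (exact 95% interval 1.17 to 1.84, counting error only). MX1, a GTPase that traps viral nucleocapsids, stood at 0.225, 0.235 and 0.142 against 0.308, 0.358 and 0.537, with a read ratio of 1.77 (1.42 to 2.21). Every SCARNA13 ASO library was above every control for MX1, and the share of all genes at that level that did so was not counted. HERC6 and DDX60 gave read ratios of 1.78 (1.31 to 2.43) and 1.43 (1.02 to 2.01) and were higher in all 3 pairs. DDX58, which encodes RIG-I, was lower in all 3 pairs, at 0.657, 0.776 and 0.228 FPKM against 0.567, 0.725 and 0.0739, with a read ratio of 0.840 (0.677 to 1.04). So 4 of the 9 members between 0.1 and 1 FPKM were higher in all 3 pairs and 1 was lower, beside 17.3% and 13.6% of all genes at that level. IFI44, IFITM1, IRF9 and PARP9 varied in direction between pairs. IRF9 shares 1838 of its 3794 exonic bases with another gene on its strand. IFI27 averaged 0.0806 FPKM on 16 and 24 reads, and XAF1, RSAD2 and IFI44L had 3, 2 and 1 reads in all 6 libraries together.

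**Figure D5:**
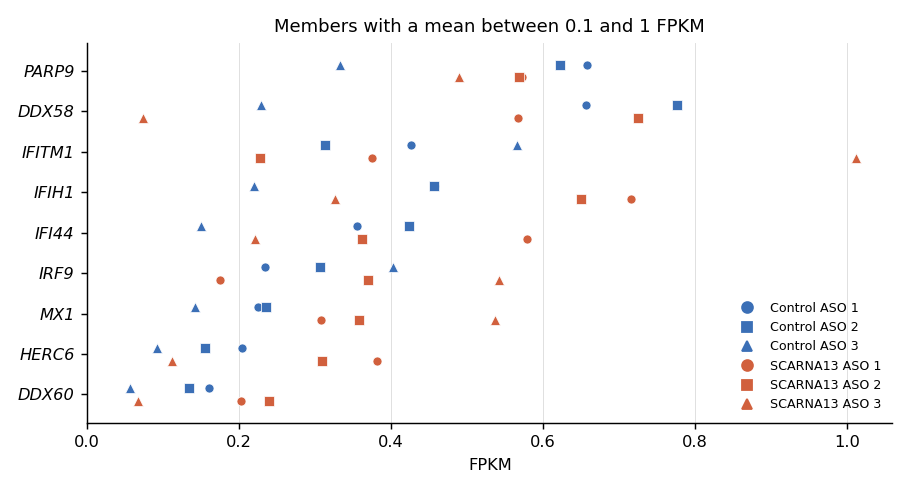
FPKM in each library of the 9 members that averaged 0.1 to 1 FPKM, by group and replicate, on a linear axis from 0. The SCARNA13 ASO points of MX1 lie above all control points, and those of the other members overlap with the controls.

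The rest of the pathway was read from 4 lists of 107 genes. Of the 13 interferon genes listed, 12 were at 0 in every library, and IFNB1 had 3 reads, all in SCARNA13 ASO replicates 2 and 3. Over the other 3 lists 63 genes were tested, and 0 passed in the fit without block and 3 with block and GC correction, 1 higher and 2 lower, beside 526 of 10104 genes (3.06% higher and 2.15% lower). The pathway lists were thus near the share over all genes. Among receptors and signalling genes 1 of 13 tested passed, and it was lower: SOCS1, an inhibitor of JAK kinases, stood at 5.88, 4.38 and 18.1 FPKM in the controls and 3.34, 2.69 and 11.4 with the SCARNA13 ASO (-0.57 ± 0.09, limma adjusted p = 0.0436). The receptor genes IFNAR1 and IFNAR2 gave -0.06 ± 0.09 and 0.03 ± 0.12. The most abundant genes of the list were SOCS3, STAT3 and IFNGR2, at 39.7, 20.2 and 13.1 FPKM on average.

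None of 13 tested nucleic acid sensing genes passed in either fit, and IRF3, PCBP2 and TICAM1 were the most abundant at 30.5, 24.3 and 14.3 FPKM. Among other interferon effectors 1 of 37 tested was higher and 1 lower. APOL1, a secreted trypanolytic apolipoprotein, rose from 1.56, 1.68 and 1.56 FPKM to 2.38, 2.47 and 2.36 (0.50 ± 0.08, limma adjusted p = 0.0440). APOBEC3B, a DNA cytidine deaminase, fell from 33.8, 34.3 and 40.0 FPKM to 24.1, 22.9 and 25.2 (-0.53 ± 0.05, adjusted p = 0.0360). For both genes the groups did not overlap. Over all tested genes, the groups did not overlap for 4% (higher) and 4.44% (lower). Other pathway genes without overlap included IFNGR2 and STAT3 (lower) and MAVS and TRIM14 (higher), which did not pass in either fit. Their number over the lists was not counted, so it cannot be set beside these shares. LY6E, LGALS3BP and CNP led the list at 277, 264 and 41.5 FPKM. The median log2 fold changes of the 3 lists were 0.06, 0.01 and 0.06 with block and GC correction.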

How the data were processed

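Per the labels' protocols, Trizol extraction was followed by an Illumina TruSeq RNA library preparation. The deposited tables hold FPKM per gene and library, which the authors computed. The sources used here do not name the counting tool or annotation. The submitters' processing notes name TopHat2 2.0.9, Bowtie2 2.0.6 and hg19, but the deposited positions are those of GRCh38 (start and end equal to GENCODE 29 for 97.6% of identifiers found there), so coordinates are GRCh38. Strand is not stated to have been used, so reads of overlapping genes cannot be told apart. FPKM times gene length gave whole reads for 100% of values (tolerance 0.01 reads). The scale assumes an unchanged median gene, as inferred from the values.

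The members and lists were chosen with earlier results of these data known. Genes averaging 1 FPKM or more were tested with limma-trend (limma 3.58.1, R 4.3.3) on log2(FPKM + 0.5), two-sided, with group as the only term, Benjamini-Hochberg adjustment over all genes and a threshold of 0.05. A second fit has the replicate number as a block and subtracts a loess trend (span 0.5) on the GC content of the longest GENCODE 29 transcript. Same-numbered libraries were taken as pairs. Their deviations from group means correlated at 0.84, 0.78 and 0.91. Crossed replicates 1 and 2 correlated at 0.81 as well, so the values do not tell how 1 and 2 pair. The pairing rests on the titles. No libraries agreed within sampling noise. Read intervals are exact and cover counting error only. Genes named with a value for every library are OASL, ISG15, IFIT1, IFIT2, IFIT3, IFIT5, IFI6, members that passed in either fit, the 5 most abundant and the 4 with the smallest unadjusted p in either fit, and other members are named with their level. TRIM25, UBE2L6, USP18, OAS3, IRF1, IRF7, IFIH1, MX1, DDX58 and SNHG10 were given so after their values were seen. Pathway genes named passed in either fit or were among the 3 most abundant of a list. IFNAR1, IFNAR2, IFNB1, TRIM14 and further nucleic acid sensing genes were added afterwards. Marker lists covered hepatocytes, epithelium, macrophages, lymphoid and dendritic cells, fibroblasts and endothelium. Promoter sequences are from RefSeq (GRCh38.p14). Protein sequences were not used here.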

Additional observations from a re-analysis of the deposited data

How the results depend on the processing

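Without block, no gene passed under another pseudocount, filter, scaling or trend setting, nor with GC correction alone, nor in limma-voom on the recovered reads, nor with any library left out. The replicate block alone also called 0 genes (smallest adjusted p 0.0506, with 2598 genes at an unadjusted p under 0.05). With block and GC correction 526 genes, 3 members and 3 pathway genes passed. With a pseudocount of 1 there, 444 genes, 3 members and 3 pathway genes passed. The block on replicates 1 and 2 alone called 629 genes, 3 members and 4 pathway genes. Block and GC correction with no filter on low values, chosen after seeing the data, called 0 genes. Wherever members passed, they were OASL, ISG15 and IFI35. Of the pathway genes, IFNGR2 and LY6E passed only in the fits with block that left out replicate 3. Leaving out libraries or replicate numbers gave 0 to 763 genes, 0 to 3 members and 0 to 5 pathway genes. The median log2 fold change of tested members was 0.0467 with a mean of at least 5 FPKM, 0.173 scaled to total reads, 0.0399 with the block on replicates 1 and 2, -0.12 to 0.13 with a library left out, and 0.0524 to 0.177 with a number left out of the fit with block and GC correction. The cause was not tested.

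Of 293 values for 13 named members under up to 23 alternatives, 14 changed sign. IFIT3 was -0.0196 with the block on replicates 1 and 2. With libraries or numbers left out, the log2 fold changes ran from -0.0422 to 0.241 (IFIT3), -0.144 to 0.423 (IFIT5, -0.0322 to 0.156 with a number left out), -0.36 to 0.62 (IFI6), -0.0500 to 0.653 (IFI35), -0.62 to 0.16 (IFITM3), -0.625 to 0.0925 (IFITM2) and -0.27 to 0.37 (BST2). OASL stayed between -1.55 and -0.81 and ISG15 between -1.49 and -0.13. The SCARNA13 reads are too few to limit its lowering, and members under 1 FPKM were left out by the filter on low values.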

Other observations

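Values of 5 nucleic acid sensing genes follow, chosen after the values were seen, and none passed in either fit. DHX58, a RIG-I-like receptor that regulates the other sensors, stood at 2.51, 2.35 and 5.35 FPKM in the controls and 3.16, 3.29 and 5.96 with the SCARNA13 ASO (0.34 ± 0.07 with block and GC correction, limma adjusted p = 0.0570). MAVS, the mitochondrial adaptor of the RNA sensors, stood at 9.46, 8.96 and 8.83 FPKM against 10.2, 10.5 and 10.7 (0.23 ± 0.06, adjusted p = 0.0922). TMEM173, which encodes the adaptor STING, stood at 6.23, 5.89 and 14.7 against 4.74, 4.90 and 8.13 (-0.41 ± 0.09, adjusted p = 0.0662). MB21D1, which encodes the DNA sensor cGAS, stood at 1.85, 2.08 and 1.40 against 1.48, 1.63 and 0.712 (-0.40 ± 0.13, adjusted p = 0.121). IFI16, another DNA sensor, stood at 3.35, 3.31 and 1.40 against 4.27, 3.98 and 3.16 (0.46 ± 0.14, adjusted p = 0.102). DHX58, MAVS and IFI16 were higher and TMEM173 and MB21D1 lower in all 3 pairs. IRF3, TBK1 and TRAF6 of the same list were also lower in all 3 pairs. IRF3 gave -0.24 ± 0.06 (limma adjusted p = 0.0839). Over all tested genes 23.9% were higher and 29.6% lower in all 3 pairs. Genes chosen after their values were seen cannot be compared with these shares.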
